A study of Mus musculus with 32 samples.

Results

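Macrophages labelled tumour differentiated were compared with microglia of tumour-free brain across all genes in a mouse glioma series, and tumour microglia were placed between these groups. The comparison used every library labelled as normal microglia (8) and every library labelled as tumour differentiated macrophages (8), so 16 of the 32 libraries. The 8 tumour microglia libraries served as the intermediate group. The other 8 libraries, labelled tumour undifferentiated macrophages, were used to estimate the spread and in 1 comparison near the end.

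RNA was measured in cells sorted by flow cytometry from dissociated mouse brain. The tumour was GL-261, a mouse glioma line grown in culture and implanted into the brain. Normal microglia were labelled Nil: 4 libraries came from C57BL/6J mice, called WT in the titles, and 4 from Pep3 mice, which carry CD45.1, with no graft and no tumour. Differentiated macrophages and tumour microglia came from chimeric mice with a tumour, in which Pep3 cells had been put into WT recipients (4 libraries per population) or WT cells into Pep3 recipients (4 libraries per population).

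No drug was given to any group. Neither the animals behind a library nor the gates of the sort are stated in the labels, so the p-values measure the spread between libraries, part of which may be technical. Normal microglia carried experiment numbers 1 and 2, and the tumour populations carried 3 and 4. Tumour, grafting and experiment number therefore cannot be told apart in any difference from normal microglia. Differentiated macrophages and tumour microglia shared experiments 3 and 4, with the recipient strains crossed.

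Microglia, the macrophages resident in the brain, arise from yolk sac progenitors, renew themselves locally and keep an identity that depends on transcription factors such as SALL1 and on signals such as TGF-beta. In glioma, monocytes from the blood also enter the tumour and become macrophages there, while resident microglia around and inside the tumour take up interferon-response and antigen-presentation programmes. A difference between tumour macrophages and normal microglia can therefore hold a part that tumour microglia share and a part that they do not.

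In the text below, the tumour step is tumour microglia minus normal microglia, and the lineage step is differentiated macrophages minus tumour microglia. The total is differentiated macrophages minus normal microglia, and equals the sum of both steps. Both steps rest on the same 8 tumour microglia libraries, with opposite sign. An error in that group's estimate would therefore move the steps in opposite directions and leave the total as it was. In sorted bulk libraries, fewer cells of a type and less RNA per cell cannot be told apart.

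Some gene groups behind the results below have well-known promoter elements. The Y-box of MHC class II promoters is bound by NF-Y, which acts together with the class II transactivator CIITA. The interferon-response element is bound by STAT and IRF factors after interferon signalling. The promoters of 2 class II genes and of 2 interferon-response genes are shown because these groups took different places between the populations. Each line gives the 120 bases before the annotated start, 5′ to 3′ on the gene's strand, from RefSeq on GRCm38.p6. The capitals mark CTGATTGG in the first 2 sequences. In the other 2 they mark GAAANNGAAA, read on the gene's strand in Isg15, where 3 copies overlap, and on the other strand in Ifit1, which holds 2 copies.
H2-Aa, class II alpha chain, chr17:34287824-34287943, minus strand: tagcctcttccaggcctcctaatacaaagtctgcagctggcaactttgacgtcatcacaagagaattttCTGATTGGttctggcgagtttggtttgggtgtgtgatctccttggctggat
H2-Eb1, class II beta chain, chr17:34305747-34305866, plus strand: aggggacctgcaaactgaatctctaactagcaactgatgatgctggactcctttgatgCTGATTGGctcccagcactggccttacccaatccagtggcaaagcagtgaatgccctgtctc
Isg15, ubiquitin-like interferon-response protein, chr4:156200819-156200938, minus strand: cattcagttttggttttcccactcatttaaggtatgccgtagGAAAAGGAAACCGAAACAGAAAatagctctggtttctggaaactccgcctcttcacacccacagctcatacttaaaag
Ifit1, interferon-induced RNA-binding protein, chr19:34640769-34640888, plus strand: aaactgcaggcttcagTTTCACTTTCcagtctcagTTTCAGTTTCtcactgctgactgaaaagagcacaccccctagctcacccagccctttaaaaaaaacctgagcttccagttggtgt

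Both motifs were searched on both strands in the 250 bases before the start of each gene. CTGATTGG was found in 3.83% of 32851 RefSeq promoters (1258), and GAAANNGAAA in 2.98% (978). Of the 9 class II presentation genes with a promoter sequence, 4 held CTGATTGG: H2-Aa, H2-Eb1, H2-Eb2 and H2-Oa. Of the 12 type I interferon-response genes with a promoter sequence, 7 held GAAANNGAAA: Isg15, Ifit1, Ifit3, Oas1a, Oas3, Rsad2 and Stat2. Among the interferon gamma-induced GTPases, 6 of 7 held it. Of the 12 homeostatic microglia genes with a promoter sequence, 0 held either motif, and among 12 monocyte-derived macrophage genes 2 (Tgfbi and Emilin2) held GAAANNGAAA. A match describes these letters only, and these data hold no binding measurement.

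The deposited values were signed scores for 17586 genes, from -6.50 to 6.92, with a mean of 0 for every gene. They therefore give no level of one gene against another, no fold change and no sequencing depth, and every difference below is in score units ± 1 standard error. The 32 columns spanned 21 dimensions, so 11 sample directions had been removed before deposit. For 9 libraries, less than 50% of the library's own variation was left. These were normal microglia libraries 1, 10, 18 and 26, differentiated macrophage libraries 28 and 31, tumour microglia library 27 and 2 libraries of undifferentiated macrophages. What was left of the 8 libraries added up to 4.04 for normal microglia, 6.32 for tumour microglia and 5.32 for differentiated macrophages. Gene lists are described below with all libraries, and again from the 23 libraries above 50%, without covariates for the removed directions. That second fit was chosen after seeing the data. With the covariates, the same libraries left 6 residual degrees of freedom and gave 0 called genes. Of the genes called with all libraries, 79.66% kept their direction in that last fit, and 99.91% without the covariates.

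The 4 genes fixed as markers separated differentiated macrophages from normal microglia in every library, while tumour microglia overlapped one of these groups for 3 of them (the plot of marker scores by library). H2-Ab1, the beta chain of the class II molecule I-A, ranged from -4.02 to -2.0 in normal microglia (median -3.29). It ranged from -1.55 to 0.92 in tumour microglia (median 0.32) and from 1.06 to 2.64 in differentiated macrophages (median 1.59). None of the 3 groups overlapped, and tumour microglia lay between the others. The total was 5.01 ± 0.38 (adjusted p = 1.8e-08), of which the tumour step was 3.22 ± 0.38 and the lineage step 1.79 ± 0.40, both called.

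Cd74, the invariant chain that guides class II molecules to the endosome, ranged from -3.20 to -1.26 in normal microglia (median -2.76) and from 0.48 to 1.81 in differentiated macrophages (median 0.84). Tumour microglia ranged from -0.46 to 1.74 (median 1.28), and their range overlapped that of differentiated macrophages. The total of 3.54 ± 0.38 (adjusted p = 1.2e-06) was made up of a tumour step of 3.45 ± 0.38 and a lineage step of 0.09 ± 0.39 (adjusted p = 0.87). Cd74 thus differed from H2-Ab1 in having no called lineage step.

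Tgfbi, a secreted matrix protein of monocyte-derived macrophages, ranged from -2.55 to -1.54 in normal microglia (median -2.23) and from -2.97 to -1.24 in tumour microglia (median -2.44). Differentiated macrophages ranged from 0.79 to 3.27 (median 2.61), above all 16 microglia libraries. The total was 4.25 ± 0.32 (adjusted p = 1.8e-08) and the lineage step 4.58 ± 0.33, while the tumour step was -0.33 ± 0.32 (adjusted p = 0.51).

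P2ry12, the ADP receptor of surveying microglia, went the other way. It ranged from 1.21 to 2.83 in normal microglia (median 1.55), from 0.39 to 1.66 in tumour microglia (median 1.14) and from -2.39 to 0.36 in differentiated macrophages (median -1.58). The microglia groups overlapped each other, and all differentiated macrophage libraries lay below both. The total was -2.96 ± 0.40 (adjusted p = 1.7e-05) and the lineage step -2.43 ± 0.41, and the tumour step of -0.53 ± 0.40 was not called. For these 4 genes the placement was the same in each of 24 fits that left out 1 library of the 3 groups, and also in the 23 libraries above 50%.

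**Figure D1:**
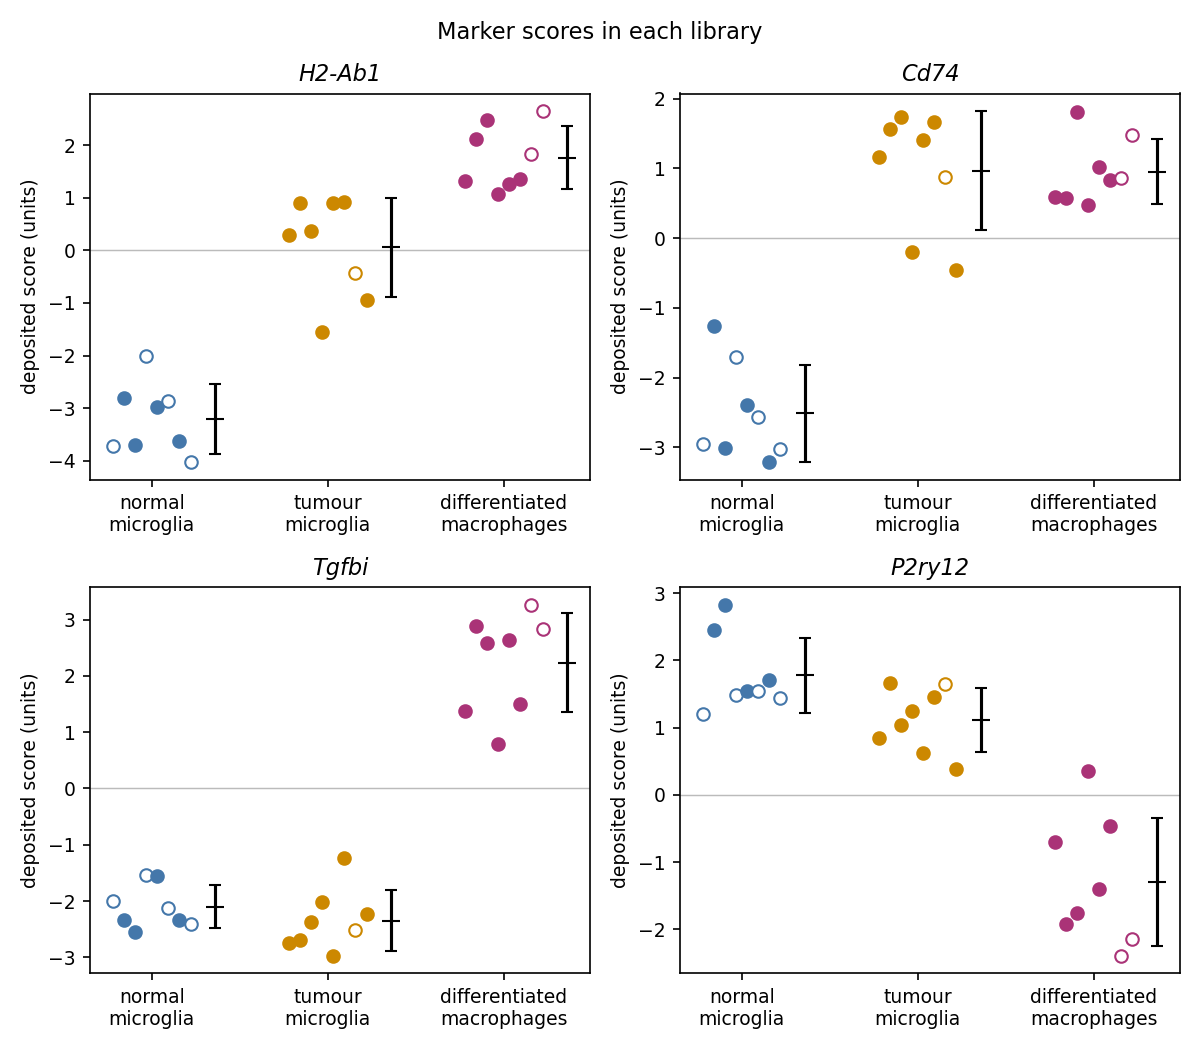
Scores of H2-Ab1, Cd74, Tgfbi and P2ry12 (vertical axis, score units) in each library of normal microglia, tumour microglia and differentiated macrophages. Each point is a library, open circles are libraries that kept under 50% of their own variation, and black bars are the mean ± SD (n = 8). H2-Ab1 steps up across the 3 groups, Cd74 is high in both tumour groups, Tgfbi is high in macrophages alone and P2ry12 is low in macrophages alone.

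Across all genes, 4346 of 17586 were called higher in differentiated macrophages than in normal microglia (24.7%) and 1411 were called lower (8.02%), at a Benjamini-Hochberg adjusted p below 0.05. The median difference over all genes was 0.53, so the middle of the distribution lay above 0. The library medians averaged -0.14 in normal microglia and 0.29 in differentiated macrophages. In tumour microglia they averaged -0.33, below both. When each library's median was subtracted, 1843 genes were called higher (10.5%) and 2300 lower (13.1%), which turned the share of higher calls from 75.5% to 44.5%. All 1843 and all 1411 genes were called in the same direction in both fits. Among the called genes, 880 higher (5% of all genes) and 584 lower (3.32%) had no overlap between the 8 and 8 libraries. The number of calls depended on single libraries: without normal microglia library 10 it was 1330 higher and 523 lower, and without library 26 it was 1386 and 795.

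The steps divided the called genes unequally. Of the genes called higher, 2705 (62.2%) had a called lineage step and no called tumour step, and 461 (10.6%) the reverse, which is 15.4% and 2.62% of all genes. Both steps were called higher for 55 genes (1.27%), and neither step reached the threshold for 813 (18.7%; 4.62% of all genes). The tumour step was called lower against the total for 300 (1.71% of all genes), and the lineage step for 12 (0.0682%). Of the genes called lower, 627 (44.4%) had a lineage step alone, 206 (14.6%) a tumour step alone, 68 (4.82%) both steps and 507 (35.9%) neither, which is 3.57%, 1.17%, 0.387% and 2.88% of all genes. The lineage step was called against the total for 3 (0.0171%). Both steps were thus called upward for 0.313% of all genes.

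These counts depended on the scale. On the median-subtracted scale, both steps were called for 24 higher and 60 lower genes, the tumour step alone for 357 and 103, and the lineage step alone for 912 and 1660. Of the 55 and 68 genes with both steps, 17 and 29 kept that place. In the 23 libraries above 50%, 2450 genes were called higher (13.9%) and 805 lower (4.58%). Both steps were called for 15 higher and 2 lower, the tumour step alone for 69 and 13 and the lineage step alone for 1542 and 453. On the deposited scale with all libraries, the tumour microglia estimate lay between the other groups for 1927 of the genes called higher (44.3%). The same held for 1175 of those called lower (83.3%). On that scale the library medians of tumour microglia averaged -0.33, below both other groups. Genes with tumour microglia between were not counted on the median-subtracted scale.

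**Figure D2:**
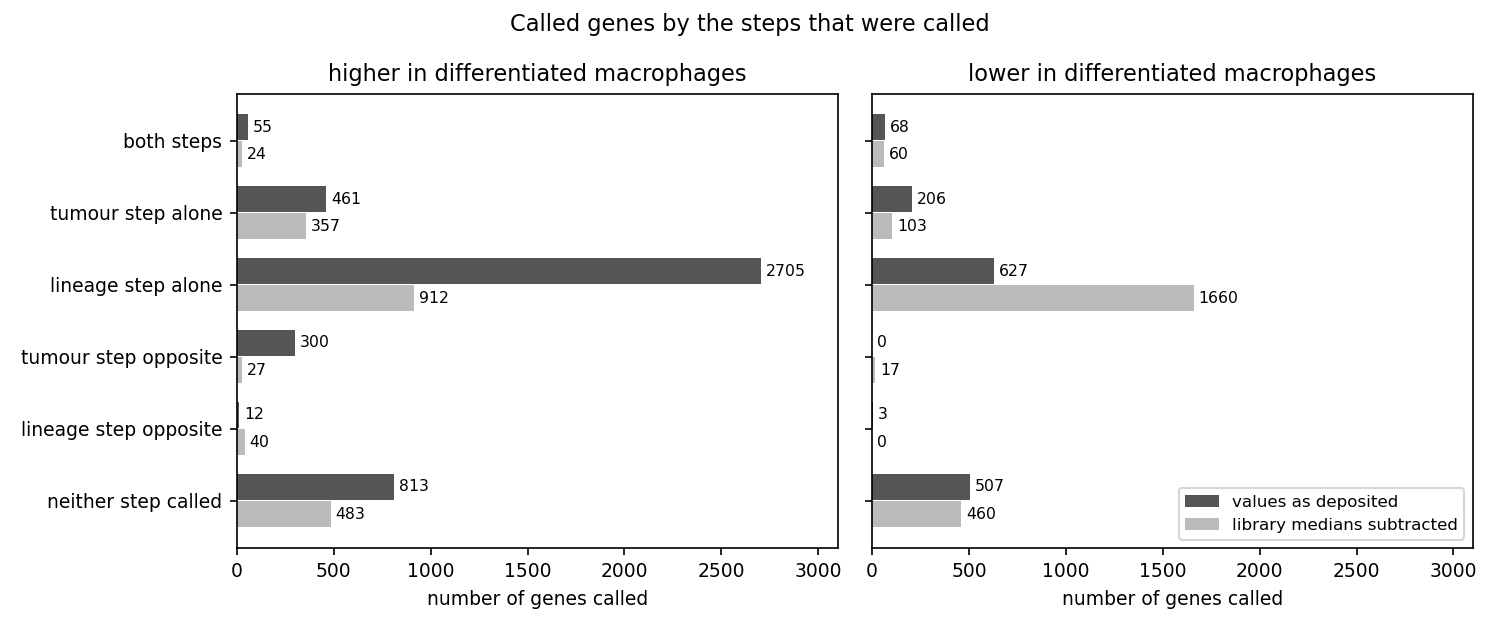
Number of genes (horizontal axis) called higher or lower in differentiated macrophages than in normal microglia, by which step was called, on the deposited scale and with library medians subtracted. The lineage step alone is the largest class of higher calls on both scales, with 2705 and 912 genes.

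Genes with both steps higher included 3 of the 12 measured class II presentation genes (H2-Aa, H2-Ab1 and H2-Eb1) and 2 of the 12 complement genes (Cfb and C3). H2-Eb1 ranged from -4.39 to -2.0 in normal microglia (median -3.09), from -1.74 to 1.08 in tumour microglia (median 0.45) and from 1.22 to 2.38 in differentiated macrophages (median 1.91). As for H2-Ab1, the 3 groups were separate and in the same order. The total was 4.92 ± 0.38 (adjusted p = 1.8e-08), with steps of 2.99 ± 0.37 and 1.93 ± 0.39. H2-Aa had a total of 4.44 ± 0.36 (adjusted p = 3.5e-08), with steps of 2.93 ± 0.36 and 1.51 ± 0.37. Its lineage step was not called with library medians subtracted, while H2-Ab1 and H2-Eb1 kept both steps.

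Cfb, the complement factor B of the alternative pathway, ranged from -3.62 to -2.20 in normal microglia (median -3.27), from -2.76 to 0.54 in tumour microglia (median -0.58) and from 0.11 to 2.91 in differentiated macrophages (median 2.05). Normal microglia and macrophages were far apart, and tumour microglia overlapped both. The total was 4.97 ± 0.43 (adjusted p = 7.5e-08), with steps of 2.38 ± 0.43 and 2.60 ± 0.44. C3, the central complement protein, had a total of 4.51 ± 0.49 (adjusted p = 1.2e-06), with steps of 2.59 ± 0.48 and 1.91 ± 0.50. Its lineage step was not called with library medians subtracted or without differentiated macrophage library 28 (1.53). Without normal microglia library 1 the tumour step was 2.04 for Cfb (adjusted p = 0.11) and 2.33 for C3 (adjusted p = 0.11), and neither was called. In the 23 libraries above 50%, which also leave out that library, both steps of both genes were called.

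Lgals3, a galectin of phagocytes, ranged from -3.78 to -1.77 in normal microglia (median -3.22), from -2.79 to 0.27 in tumour microglia (median -0.56) and from 0.11 to 3.12 in differentiated macrophages (median 2.36). Its total was 5.16 ± 0.50 (adjusted p = 2.4e-07), with steps of 2.27 ± 0.49 and 2.88 ± 0.51. Totals were 4.32 ± 0.43 for the scavenger receptor Msr1, 3.81 ± 0.41 for the beta-glucan receptor Clec7a, 4.43 ± 0.53 for the cytokine Il1b and 3.85 ± 0.42 for the lipid droplet protein Plin2. These 5 totals were called in each fit that left out 1 library. Their tumour steps were not: each was lost without normal microglia library 1, normal microglia library 18 or tumour microglia library 27, in Lgals3, Il1b and Plin2 also without normal microglia library 10, and in Msr1, Clec7a and Il1b also without library 26. In the fits that lost it, the tumour step was 1.42 to 1.91 for Lgals3, 1.19 to 1.70 for Msr1, 0.68 to 1.65 for Clec7a, 0.59 to 1.65 for Il1b and 0.96 to 1.52 for Plin2. In the libraries above 50%, without covariates, all 5 genes had the lineage step alone.

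Genes with both steps lower included microglia identity genes. Fcrls, an Fc receptor-like protein of microglia, ranged from 2.03 to 3.23 in normal microglia (median 2.96), from 0.04 to 2.13 in tumour microglia (median 0.90) and from -2.98 to -0.86 in differentiated macrophages (median -1.83). Macrophage libraries lay below all microglia, and the microglia groups overlapped only between 2.03 and 2.13. The total was -4.57 ± 0.38 (adjusted p = 4.7e-08), with steps of -1.83 ± 0.38 and -2.74 ± 0.39. Tmem119, a membrane protein used to tell microglia from other macrophages, had a total of -3.45 ± 0.29 (adjusted p = 4.9e-08) with steps of -1.08 ± 0.29 and -2.37 ± 0.30. Fscn1, an actin-bundling protein, had a total of -3.76 ± 0.44 (adjusted p = 3e-06) with steps of -2.05 ± 0.44 and -1.72 ± 0.45.

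The tumour steps of Fcrls, Tmem119 and Fscn1 were lost when normal microglia library 1, 10 or 18 or library 27 of tumour microglia was left out, where they were -1.32 to -1.49 for Fcrls, -0.60 to -1.10 for Tmem119 and -1.14 to -1.83 for Fscn1. The lineage step of Fscn1 was lost without differentiated macrophage library 28 (-1.22). After median subtraction, Fcrls and Fscn1 kept both steps and Tmem119 had the lineage step alone. In the libraries above 50%, without covariates, Fcrls, Tmem119 and Fscn1 all had the lineage step alone. Trem2, a lipid-sensing receptor, had a total of -2.63 ± 0.28 (adjusted p = 1.2e-06). Irf8, a transcription factor of macrophages and microglia, had a total of -1.99 ± 0.29 (adjusted p = 4.1e-05). Both were called lower in both steps, but the place of Trem2 held in only 14 of the 24 fits without 1 library, and that of Irf8 in 8. Trem2 and Irf8 had the lineage step alone after median subtraction and in the libraries above 50%.

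**Figure D3:**
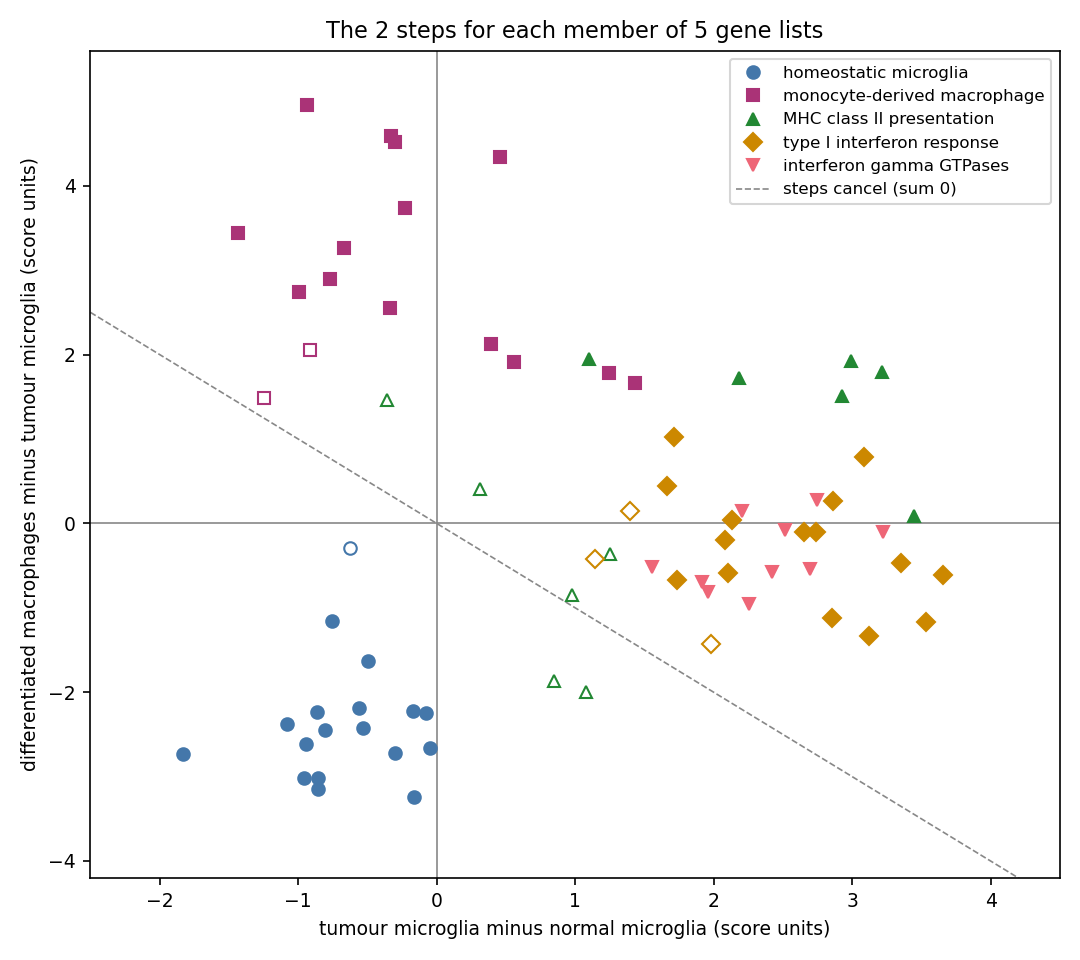
Tumour step (horizontal axis, score units) against lineage step (vertical axis, score units) for the measured members of 5 gene lists. Each symbol is a gene, open symbols are genes whose total was not called, and the dashed line is where the steps cancel; both axes use the same tumour microglia libraries. Interferon-response genes lie at a raised tumour step and a lineage step near 0, macrophage genes at a raised lineage step, and homeostatic genes at a negative lineage step.

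The interferon-response genes were higher in differentiated macrophages than in normal microglia and took their place at the tumour step. Of 18 measured type I interferon-response genes, 15 were called higher and 0 lower (all genes, 24.7% and 8.02%), with a median total of 2.14 against 0.53 over all genes. The tumour step was called higher for 15 (4.66% of all genes), alone for 13 of them, and the lineage step for 0 higher and 2 lower (37% and 6.35% of all genes). The other 3 totals lay between 0.56 and 1.54. Once library medians were subtracted, 13 were called higher (all genes, 10.5%). The lineage step was then called higher for 0 and lower for 8 (19.8% and 19.2% of all genes). On that scale, the tumour step was called higher for 7.72% and lower for 7.6% of all genes. In the 23 libraries above 50%, 10 were called higher and 0 lower (all genes, 13.9% and 4.58%).

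Irf7, the transcription factor that amplifies interferon production, ranged from -3.94 to -1.94 in normal microglia (median -2.74), from -0.77 to 1.59 in tumour microglia (median 0.04) and from -0.02 to 2.28 in differentiated macrophages (median 1.21). Both tumour groups lay above all normal microglia and overlapped each other. The total was 3.87 ± 0.45 (adjusted p = 3.2e-06), the tumour step 3.08 ± 0.45 and the lineage step 0.79 ± 0.47 (adjusted p = 0.18). Isg15, whose promoter is printed above, had a total of 2.89 ± 0.42 (adjusted p = 4.5e-05), a tumour step of 3.36 ± 0.42 and a lineage step of -0.47 ± 0.44. Oas2, a sensor enzyme for double-stranded RNA, had a total of 3.05 ± 0.35 (adjusted p = 2.6e-06) and a tumour step of 3.66 ± 0.35. Relative to the library medians, the lineage steps of Isg15 and Oas2 were called lower, and Irf7 remained at the tumour step alone.

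Ifit1, the other interferon-response gene with its promoter printed, ranged from -3.38 to -0.06 in normal microglia, from -0.30 to 1.96 in tumour microglia and from 0.12 to 1.69 in differentiated macrophages. Its total was 3.13 ± 0.46 (adjusted p = 4.2e-05) and its tumour step 2.86 ± 0.45. The tumour step was lost without normal microglia library 1 (2.68, adjusted p = 0.058) and in the 23 libraries above 50%. Ifit and Oas genes belong to families of near-identical copies, so reads may be split between members.

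All 10 measured interferon gamma-induced GTPases were called higher in total (all genes, 24.7%) and at the tumour step (all genes, 4.66%). The medians over the list were 2.00 and 2.34. The lineage step was called for 0 of them (all genes, 37% higher and 6.35% lower). Against each library's median, 6 were called higher in total (all genes, 10.5%) and 5 had a lineage step called lower (all genes, 19.2%). In the 23 libraries above 50%, 5 were called higher (all genes, 13.9%). Gbp2, a guanylate-binding protein that attacks intracellular pathogens, ranged from -2.98 to -0.63 in normal microglia (median -2.24), from -0.07 to 1.75 in tumour microglia (median 1.10) and from -0.66 to 2.14 in differentiated macrophages (median 0.67). The lowest macrophage library reached the top of the normal microglia range, and tumour microglia lay above it. The total was 3.12 ± 0.45 (adjusted p = 3.6e-05) and the lineage step -0.11 ± 0.46. The Gbp and Irg genes also hold near-identical copies.

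Class I presentation followed the same order with smaller differences. Of 13 measured genes, 11 were called higher in total (all genes, 24.7%) and 9 at the tumour step (all genes, 4.66%). The medians over the list were 1.35 and 1.61. The lineage step was called for 0 higher and 1 lower (all genes, 37% and 6.35%). When library medians were subtracted, 6 were called higher in total (all genes, 10.5%) and 7 had a lineage step called lower (all genes, 19.2%). In the 23 libraries above 50%, 6 were called higher and 0 lower (all genes, 13.9% and 4.58%). H2-K1, a class I heavy chain, ranged from -2.28 to -1.09 in normal microglia (median -1.66), from 0.11 to 1.21 in tumour microglia (median 0.66) and from 0.16 to 0.86 in differentiated macrophages (median 0.48). The macrophage range lay inside that of tumour microglia. The total was 2.09 ± 0.27 (adjusted p = 1e-05) and the tumour step 2.40 ± 0.27. B2m, the class I light chain, had a total of 0.87 ± 0.28 (adjusted p = 0.024), which was not called with library medians subtracted or in the 23 libraries above 50%. Class I heavy chains are near-identical copies of each other, so their separate values are uncertain.

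Class II presentation was split. Of 12 measured genes, 6 were called higher in total (all genes, 24.7%; median 2.08 over the list) and 6 were not called. On the median-subtracted scale, 6 were called higher and 1 lower (all genes, 10.5% and 13.1%). The 23 libraries above 50% gave 6 and 0 (all genes, 13.9% and 4.58%). The 6 that rose were H2-Ab1, H2-Aa, H2-Eb1, Cd74, Ciita and H2-DMb2. H2-DMb2, a chain of the peptide exchanger H2-M, had a total of 3.91 ± 0.88 (adjusted p = 0.0027), with neither step called. Without normal microglia library 10 or 26 its total was 3.68 to 3.80 and was not called (adjusted p = 0.054 to 0.060). Ciita, the transactivator of class II genes, had a total of 3.04 ± 0.54 (adjusted p = 0.00034), a tumour step of 1.10 ± 0.54 (adjusted p = 0.16) and a lineage step of 1.94 ± 0.56. Its total was 1.77 (adjusted p = 0.064) without normal microglia library 26. The chains of H2-O, which restrain peptide loading in B cells, were not called in total: H2-Oa had -0.92 ± 0.59 and H2-Ob -1.02 ± 0.44. Their lineage steps were -2.0 ± 0.60 and -1.87 ± 0.46, both called lower. Both were lost without differentiated macrophage library 28, and that of H2-Oa also without library 7 (-1.39 to -1.57). H2-Ob was the gene called lower in total with library medians subtracted.

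Further genes with the tumour step alone were surface receptors and a kinase. Cd300lf, an inhibitory receptor of myeloid cells, had a total of 3.78 ± 0.33 (adjusted p = 9.3e-08), a tumour step of 3.66 ± 0.33 and a lineage step of 0.12 ± 0.34. Ly6a, an interferon-inducible surface protein, had 3.72 ± 0.33 (adjusted p = 1.1e-07), 3.21 ± 0.33 and 0.51 ± 0.34. Ikbke, a kinase upstream of interferon regulatory factors, had a total of 3.94 ± 0.49 (adjusted p = 6.7e-06). In both receptors the normal microglia libraries lay below all libraries of the tumour groups.

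Among 14 immune checkpoint and costimulation genes, 5 rose in total and 2 fell (all genes, 24.7% and 8.02%), with a median of 0.74 against 0.53 over all genes. After median subtraction, 4 rose and 2 fell (all genes, 10.5% and 13.1%), and in the 23 libraries above 50%, 3 and 1 (all genes, 13.9% and 4.58%). Cd274, which encodes the ligand PD-L1, ranged from -3.09 to -0.84 in normal microglia (median -2.16), from -0.44 to 0.65 in tumour microglia (median 0.33) and from -0.10 to 1.99 in differentiated macrophages (median 1.15). All tumour libraries lay above normal microglia. The total was 3.17 ± 0.38 (adjusted p = 3.5e-06) and the tumour step 2.36 ± 0.37, which fell short of the threshold without normal microglia library 1 (1.96, adjusted p = 0.079). The inhibitory receptor Lilrb4 had a total of 3.28 ± 0.35 (adjusted p = 1.1e-06) and a tumour step of 2.70 ± 0.35. Pdcd1lg2, which encodes the ligand PD-L2, had a total of 2.47 ± 0.53 (adjusted p = 0.0016) and a lineage step of 3.59 ± 0.54, but its total was not called in the 23 libraries above 50% or without normal microglia library 10 (1.93). Cd40, the costimulatory receptor, had a total of 3.52 ± 0.53 (adjusted p = 6.4e-05).

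Of 19 cell cycle genes, 10 were called higher and 0 lower in total (all genes, 24.7% and 8.02%; median 1.57), 8 of them with the tumour step alone, and 9 were not called. Once library medians were subtracted, 6 were called higher (all genes, 10.5%), and in the 23 libraries above 50%, 4 (all genes, 13.9%). Birc5, a mitotic protein, ranged from -2.69 to -0.47 in normal microglia, from -0.89 to 1.82 in tumour microglia and from -0.59 to 2.78 in differentiated macrophages, so the groups overlapped. Its total was 2.21 ± 0.54 (adjusted p = 0.0041), and without normal microglia library 10 it was not called (2.26, adjusted p = 0.065). Top2a, which untangles replicated DNA, had a total of 1.83 ± 0.52 (adjusted p = 0.01), which was lost in 5 of the 24 fits without 1 library (1.09 to 2.08). Those were the fits without normal microglia library 2, 10 or 26 or differentiated macrophage library 28 or 31. Mki67, the proliferation marker, had 0.95 ± 0.46 (adjusted p = 0.11).

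**Figure D4:**
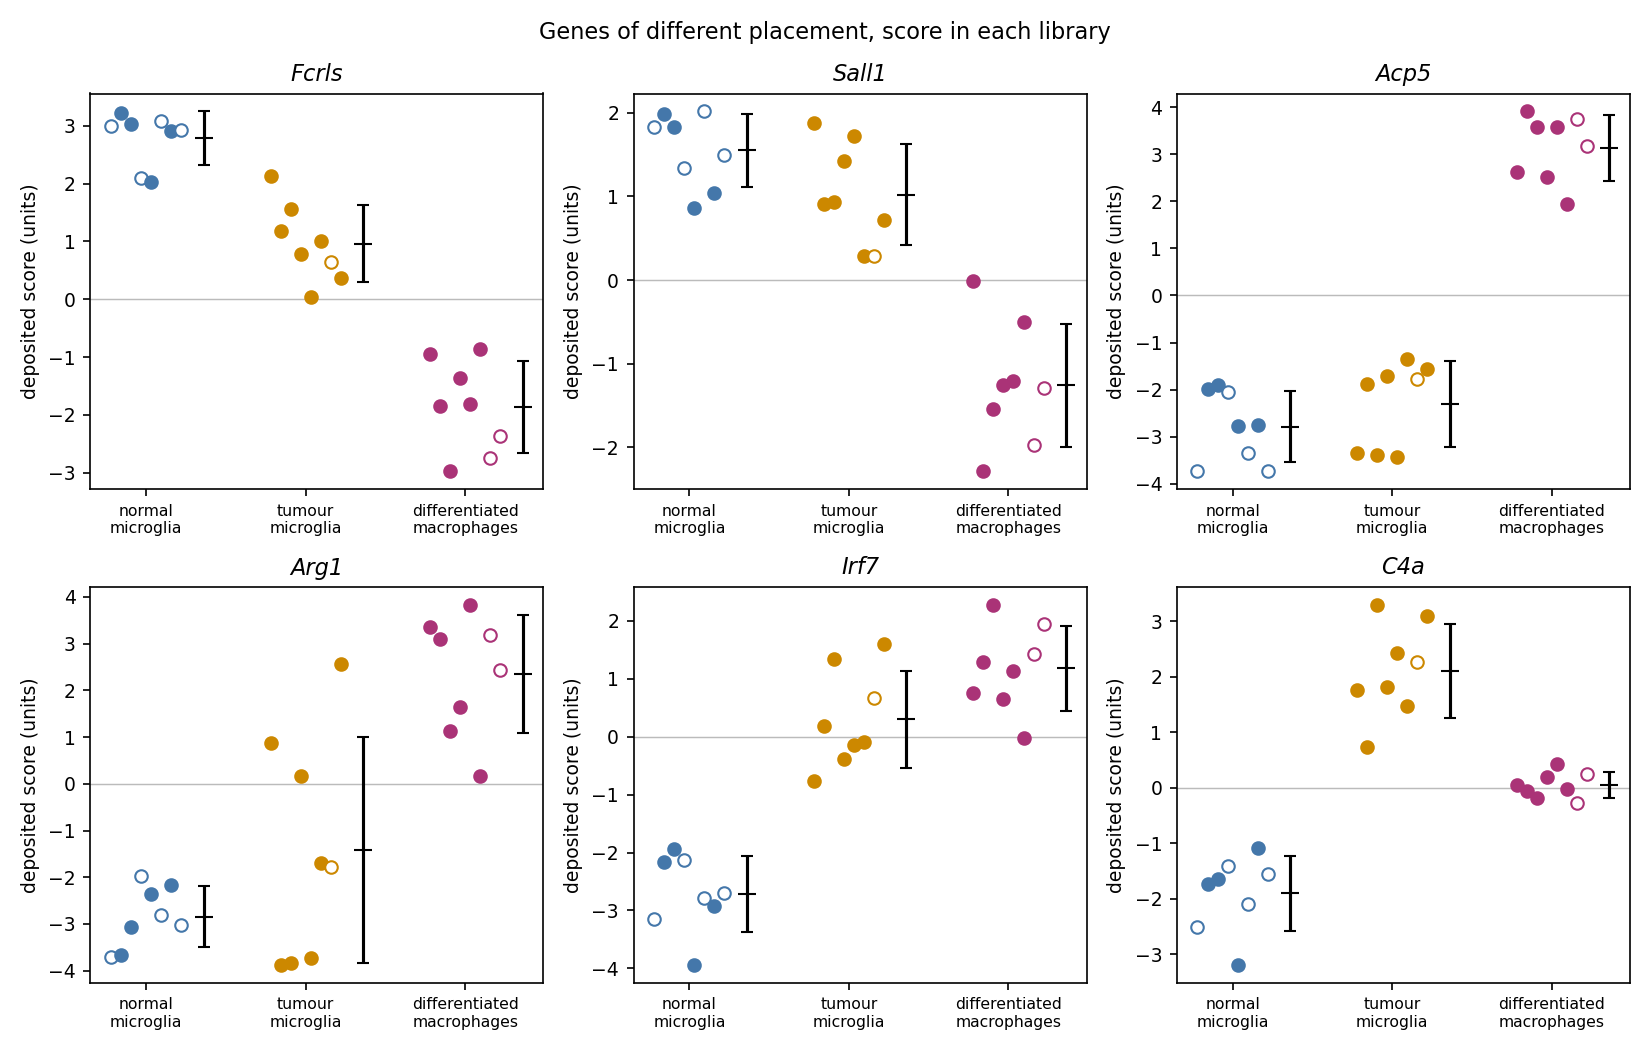
Scores (vertical axis, score units) of Fcrls, Sall1, Acp5, Arg1, Irf7 and C4a in each library of normal microglia, tumour microglia and differentiated macrophages, as examples of the ways tumour microglia were placed. Points are libraries, open circles kept under 50% of their own variation, and black bars are the mean ± SD (n = 8). Irf7 is high in both tumour groups, Acp5 in macrophages alone, and C4a is highest in tumour microglia.

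The homeostatic microglia genes fell, most of them at the lineage step alone. Of 18 measured genes, 17 were called lower in total (all genes, 8.02%) and 0 higher, all 17 without overlap between the groups (all genes, 3.32%), with a median of -3.06. Totals of the 17 ran from -4.57 to -1.91. The tumour step was called lower for 3 (12% of all genes; median -0.69) and the lineage step for 17 (6.35% of all genes; median -2.44). Relative to the library medians, all 18 were called lower in total (all genes, 13.1%). The 23 libraries above 50% also gave 18 (all genes, 4.58%). The mean score over the list was 1.32 to 2.32 in normal microglia libraries, 0.57 to 1.45 in tumour microglia and -2.13 to -0.57 in differentiated macrophages.

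Sall1, the transcription factor that maintains microglia identity, ranged from 0.87 to 2.02 in normal microglia (median 1.66), from 0.29 to 1.88 in tumour microglia (median 0.92) and from -2.29 to -0.01 in differentiated macrophages (median -1.27). Macrophage libraries lay below all 16 microglia libraries. The total was -2.74 ± 0.39 (adjusted p = 3.3e-05), with a lineage step of -2.18 ± 0.40 and a tumour step of -0.56 ± 0.39 that was not called. The fractalkine receptor Cx3cr1 had a total of -3.25 ± 0.28 (adjusted p = 7.8e-08), and its tumour step of -0.81 ± 0.28 lay just outside the threshold (adjusted p = 0.051). Siglech, a sialic acid-binding lectin, had a total of -3.97 ± 0.39 (adjusted p = 2.6e-07). Gpr56, an adhesion receptor, fell by 3.55 ± 0.30 (adjusted p = 4.7e-08).

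The 10 largest falls without overlap held genes inside and outside the homeostatic list. Slc2a5, a fructose transporter on the list, had a total of -4.00 ± 0.46 (adjusted p = 2.4e-06). Outside the list, Mlxipl, a glucose-responsive transcription factor, had a total of -4.16 ± 0.40 (adjusted p = 2.4e-07). Bin1, a membrane-curving protein, had -4.15 ± 0.46 (adjusted p = 1.5e-06). Golm1 had -3.91 ± 0.35, the leukotriene C4 synthase Ltc4s -3.89 ± 0.37 and Zcwpw1, a histone reader, -3.89 ± 0.48. All 6 of these genes were placed at the lineage step alone. Zcwpw1 had a tumour step of -0.04 ± 0.48, and its ranges were 0.85 to 2.43 in normal microglia, 0.17 to 2.94 in tumour microglia and -3.63 to -0.40 in macrophages.

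On the higher side, the lineage step held the monocyte-derived macrophage genes. Of 16 measured, 14 rose in total (all genes, 24.7%), 10 of them without overlap (all genes, 5%), and 0 fell, with a median of 2.55. The lineage step was called higher for all 16 (37% of all genes, median 2.82). The tumour step was called higher for 2 and lower for 2 (4.66% and 12% of all genes, median -0.33). Against each library's median, 13 rose (all genes, 10.5%), and in the 23 libraries above 50%, 11 (all genes, 13.9%). The mean score over the list was -1.81 to -1.0 in normal microglia, -2.30 to -0.86 in tumour microglia and 0.27 to 2.33 in differentiated macrophages. This list was chosen with earlier results of these data known and is no independent evidence of its direction.

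Runx3, a transcription factor of peripheral leukocytes, ranged from -3.47 to -0.74 in normal microglia (median -2.40), from -3.48 to 0.66 in tumour microglia (median -1.99) and from 0.94 to 3.42 in differentiated macrophages (median 2.47). The macrophages lay above all microglia. The total was 4.80 ± 0.60 (adjusted p = 6.5e-06) and the lineage step 4.34 ± 0.61. The coagulation factors F10 and F7, which monocytes and macrophages can make, had totals of 4.21 ± 0.39 (adjusted p = 1.5e-07) and 4.03 ± 0.46 (adjusted p = 2.4e-06). Ccr2, the receptor that brings monocytes into tissue, had 2.59 ± 0.47 (adjusted p = 0.00038). Itga4, an integrin subunit that separates blood-derived cells from microglia, had 1.75 ± 0.49 (adjusted p = 0.0097), but was not called in the 23 libraries above 50% or without normal microglia library 1, 10 or 26 or differentiated macrophage library 31 (1.25 to 1.61).

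Of 12 measured monocyte genes, 11 rose in total and 0 fell (all genes, 24.7% and 8.02%; median 2.47). When library medians were subtracted, 9 rose (all genes, 10.5%), and in the 23 libraries above 50% also 9 (all genes, 13.9%). S100a6, a calcium-binding protein, had a total of 4.09 ± 0.52 (adjusted p = 7.8e-06) and lysozyme Lyz2 had 2.32 ± 0.34 (adjusted p = 4.8e-05), the former with a lineage step alone and the latter with a tumour step alone. The tumour step of Lyz2 was lost without normal microglia library 1 or 26 (1.23 to 1.40).

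Among the 10 largest rises without overlap were Acp5, Ccl8, Fabp5, Pla2g7 and Arg1, besides H2-Ab1, H2-Eb1, Cfb, Lgals3 and Runx3 described above. Acp5, the tartrate-resistant acid phosphatase of osteoclasts and macrophages, ranged from -3.73 to -1.91 in normal microglia (median -2.76), from -3.43 to -1.35 in tumour microglia (median -1.82) and from 1.94 to 3.91 in differentiated macrophages (median 3.37). No macrophage library came near the microglia, and the microglia groups overlapped. The total was 6.04 ± 0.40 (adjusted p = 3.1e-09), with a tumour step of 0.56 ± 0.40 that was not called. Fabp5, a fatty acid carrier, had a total of 5.36 ± 0.42 (adjusted p = 1.8e-08) and a lineage step of 4.85 ± 0.43. Pla2g7, a secreted phospholipase, had 5.27 ± 0.50 (adjusted p = 2e-07).

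Of 12 measured alternative activation genes, 9 rose and 0 fell (all genes, 24.7% and 8.02%), with a median of 3.28. The lineage step was called higher for 9 and the tumour step for 1 (37% and 4.66% of all genes). On the median-subtracted scale, 8 rose (all genes, 10.5%), and in the 23 libraries above 50%, 7 (all genes, 13.9%). Arg1, the arginase that consumes extracellular arginine, ranged from -3.71 to -1.96 in normal microglia (median -2.92) and from 0.17 to 3.83 in differentiated macrophages (median 2.77). In tumour microglia it was spread from -3.87 to 2.57 (median -1.73), across both other groups. The total was 5.20 ± 0.84 (adjusted p = 0.00015), and the lineage step of 3.58 ± 0.87 was not called without differentiated macrophage library 28 (2.86, adjusted p = 0.081). The mannose receptor Mrc1 had a total of 3.82 ± 0.51 (adjusted p = 1.4e-05), the resistin-like protein Retnla 3.76 ± 0.67 (adjusted p = 0.00034) and the chitinase-like protein Chi3l3 3.38 ± 0.70 (adjusted p = 0.0012). Without normal microglia library 10 the total of Chi3l3 was 3.03 (adjusted p = 0.057).

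Among 12 lipid-handling genes, 7 rose and 1 fell (all genes, 24.7% and 8.02%; median 1.36). After median subtraction, 6 rose and 1 fell (all genes, 10.5% and 13.1%). The 23 libraries above 50% gave 6 and 0 (all genes, 13.9% and 4.58%). Nr1h3, the oxysterol receptor LXR alpha, ranged from -3.49 to -0.67 in normal microglia (median -1.46), from -3.77 to -0.91 in tumour microglia (median -2.54) and from -0.13 to 3.19 in differentiated macrophages (median 2.79). The total was 3.59 ± 0.53 (adjusted p = 4.7e-05) and the lineage step 4.32 ± 0.55. Apoe, the main lipoprotein of brain phagocytes, had a total of 2.92 ± 0.45 (adjusted p = 8e-05), with steps of 1.18 ± 0.45 and 1.74 ± 0.47. Its called step depended on the scale: the lineage step as deposited, the tumour step with library medians subtracted.

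**Figure D5:**
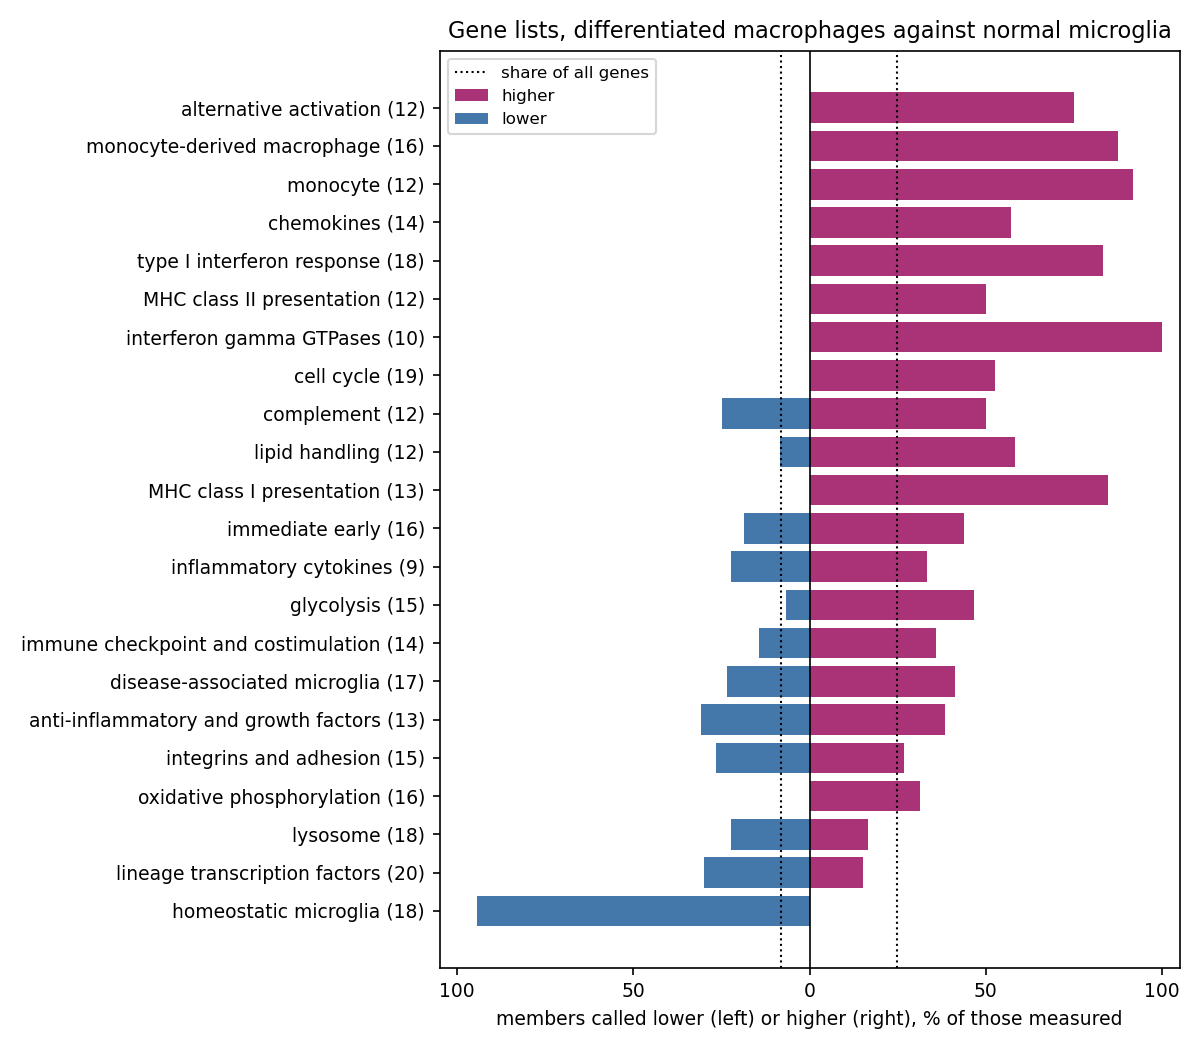
Share of the measured members of each gene list (horizontal axis, %) called higher (right) or lower (left) in differentiated macrophages than in normal microglia, for lists with at least 9 measured members (number in brackets). Dotted lines are the shares over all genes, 24.7% higher and 8.02% lower. The homeostatic list is the only one of those plotted with lower calls for most members.

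Of 14 measured chemokines, 8 rose in total and 0 fell (all genes, 24.7% and 8.02%; median 2.38). Of these 8, 4 had the tumour step alone, 2 the lineage step alone and 2 both steps. Over all 14, the tumour step was called higher for 9 (4.66% of all genes), and the lineage step for 4 higher and 4 lower (37% and 6.35%). Once library medians were subtracted, 8 rose (all genes, 10.5%), as also in the 23 libraries above 50% (all genes, 13.9%). Ccl8, a ligand that attracts monocytes and T cells, ranged from -3.97 to -1.68 in normal microglia (median -3.20), from -3.17 to 0.08 in tumour microglia (median -0.71) and from -0.67 to 5.18 in differentiated macrophages (median 3.12). Its total was 5.69 ± 0.86 (adjusted p = 8e-05), and its lineage step was not called without differentiated macrophage library 28 (3.31, adjusted p = 0.056). Cxcl10, a ligand of the T cell receptor CXCR3, had a total of 3.64 ± 0.42 (adjusted p = 3e-06) from a tumour step of 3.18 ± 0.42. Ccl2, the main attractant of CCR2-positive monocytes, had a total of 2.18 ± 0.43 (adjusted p = 0.00083) and a tumour step of 3.20 ± 0.43.

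Other genes were raised in tumour microglia but not in total. Ccl4, an inflammatory chemokine, ranged from -3.01 to 0.62 in normal microglia (median -0.41), from 1.63 to 5.59 in tumour microglia (median 3.27) and from -3.49 to 2.76 in differentiated macrophages (median -0.68). Tumour microglia lay above all normal microglia, and normal microglia and macrophages overlapped. The total was 0.46 ± 0.94 (adjusted p = 0.72), from a tumour step of 4.40 ± 0.94 and a lineage step of -3.94 ± 0.97. Ccl12 had a total of 0.77 ± 0.38 from 2.66 ± 0.38 and -1.89 ± 0.39, and Cxcl13 a total of -0.40 ± 0.69 from 2.66 ± 0.69 and -3.06 ± 0.71. Cst7, a protease inhibitor raised in activated microglia, had 0.49 ± 0.40 from 2.71 ± 0.40 and -2.23 ± 0.41.

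The tumour step of Ccl4 was lost when normal microglia library 1, 10 or 18 or library 27 of tumour microglia was left out (2.57 to 3.96), and its lineage step without tumour microglia library 27 (-2.71). The tumour step of Cxcl13 was lost when normal microglia library 1, 18 or 26 or library 27 of tumour microglia was left out (1.99 to 2.94). Those of Ccl12 and Cst7 were lost without normal microglia library 1 (1.91 and 1.81). Over all genes, 109 had a tumour step called higher and a lineage step called lower, and the total was not called for 97 of them. The opposite order held for 1708 genes, of which 1405 had no called total. Relative to the library medians, these counts were 563 (506 with no called total) and 1007 (980).

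C4a, a complement C4 gene, kept a called total although its steps had opposite signs. It ranged from -3.19 to -1.09 in normal microglia (median -1.70), from 0.73 to 3.30 in tumour microglia (median 2.04) and from -0.28 to 0.43 in differentiated macrophages (median 0.02). The 3 groups did not overlap, with tumour microglia highest. The total was 2.03 ± 0.38 (adjusted p = 0.00047), from 4.12 ± 0.37 and -2.08 ± 0.39, and the placement was the same in all 24 fits without 1 library. C4a and C4b are near-identical, so reads may be split between them. Rtp4, an interferon-induced transporter chaperone, had a total of 1.73 ± 0.33 (adjusted p = 0.00055) from 2.86 ± 0.32 and -1.13 ± 0.34, and the lineage step was -1.24 (adjusted p = 0.053) without differentiated macrophage library 28.

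Complement genes moved in both directions. Of 12 measured, 6 rose and 3 fell in total (all genes, 24.7% and 8.02%; median 1.46). Against each library's median, 5 rose and 3 fell (all genes, 10.5% and 13.1%). The 23 libraries above 50% gave 5 and 1 (all genes, 13.9% and 4.58%). Besides C3, Cfb and C4a, Cfp, the properdin that stabilises the alternative pathway, rose by 4.22 ± 0.52 (adjusted p = 5.8e-06), with a lineage step of 3.96 ± 0.54. Genes that fell included C1qb, a chain of the recognition protein of the classical pathway (-1.19 ± 0.33, adjusted p = 0.009), and C1qa, another of its chains (-0.84 ± 0.32, adjusted p = 0.048). C1qa was not called in the 23 libraries above 50%. It was lost in 18 of the 24 fits without 1 library, and C1qb in 3 (without normal microglia library 1 or 10 or differentiated macrophage library 28, -0.84 to -1.11).

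Among 9 measured inflammatory cytokines, 3 rose and 2 fell (all genes, 24.7% and 8.02%; median 0.95). When library medians were subtracted, 2 rose and 2 fell (all genes, 10.5% and 13.1%). The 23 libraries above 50% gave 2 and 1 (all genes, 13.9% and 4.58%). Il1b and Il1a, the forms of interleukin 1, went opposite ways: Il1b rose by 4.43 ± 0.53, while Il1a had a total of -1.93 ± 0.42 (adjusted p = 0.0019). Il1a ranged from -0.33 to 1.71 in normal microglia, from 0.38 to 1.79 in tumour microglia and from -3.14 to -0.45 in differentiated macrophages, below all microglia. It was not called in the 23 libraries above 50%, without normal microglia library 10 (-1.54) or without differentiated macrophage library 28 (-1.21). Tnf, the tumour necrosis factor, had a total of 2.23 ± 0.51 (adjusted p = 0.0025) from a tumour step of 2.88 ± 0.50, and its total was 1.72 (adjusted p = 0.12) without normal microglia library 10.

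Il18, an interferon gamma-inducing cytokine, had a total of -1.72 ± 0.45 (adjusted p = 0.007). It was lost without normal microglia library 1, 18 or 26 or differentiated macrophage library 28 (-1.01 to -1.81). Without normal microglia library 1 the tumour step of Tnf was 2.97 (adjusted p = 0.058).

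Of 13 growth and anti-inflammatory factors, 5 rose and 4 fell (all genes, 24.7% and 8.02%), with a median of 0.54 against 0.53 over all genes. On the median-subtracted scale, 4 rose and 4 fell (all genes, 10.5% and 13.1%). The 23 libraries above 50% gave 3 and 2 (all genes, 13.9% and 4.58%). Il1rn, the antagonist of the interleukin 1 receptor, rose by 4.08 ± 0.48 (adjusted p = 3.4e-06) and the secreted phosphoprotein Spp1 by 3.77 ± 0.53 (adjusted p = 3e-05). Tgfb1, the growth factor on which microglia identity depends, ranged from 0.61 to 2.41 in normal microglia (median 1.68), from -1.49 to 0.96 in tumour microglia (median -0.31) and from -1.94 to 0.40 in differentiated macrophages (median -0.95). Its total was -2.36 ± 0.51 (adjusted p = 0.0017) and its tumour step -1.79 ± 0.50. Without normal microglia library 1 the total was -1.46 (adjusted p = 0.086), and the tumour step was lost there and with normal microglia library 18 or 26 or library 27 of tumour microglia left out (-0.61 to -1.74). Pdgfb, a platelet-derived growth factor chain, had a total of -2.53 ± 0.47 (adjusted p = 0.00047) from a lineage step of -1.88 ± 0.48, which was not called without differentiated macrophage library 28 (-1.24).

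Genes listed as disease-associated in microglia moved in both directions. Of 17, 7 rose and 4 fell in total (all genes, 24.7% and 8.02%; median 0.74). After median subtraction, 6 rose and 5 fell (all genes, 10.5% and 13.1%). The 23 libraries above 50% gave 6 and 3 (all genes, 13.9% and 4.58%). Axl, a receptor for apoptotic cells, rose by 2.90 ± 0.48 (adjusted p = 0.00016) from a tumour step of 2.78 ± 0.48. Gpnmb, a glycoprotein of lysosomes, rose by 3.39 ± 0.69 (adjusted p = 0.001) from a lineage step of 3.16 ± 0.71. Ctsd, the lysosomal protease cathepsin D, fell by 2.16 ± 0.33 (adjusted p = 6.4e-05). The total of Axl was 1.90 (adjusted p = 0.057) without normal microglia library 10, and that of Gpnmb was 2.12 to 2.34 without library 1 or 26. Among 18 lysosome genes, 3 rose and 4 fell (all genes, 24.7% and 8.02%), with a median of -0.15 over the list. When library medians were subtracted, 3 rose and 7 fell (all genes, 10.5% and 13.1%). In the 23 libraries above 50%, the counts were 3 and 4 (all genes, 13.9% and 4.58%).

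Of 20 lineage transcription factors, 6 fell and 3 rose (all genes, 8.02% and 24.7%), with a median of -0.37 against 0.53 over all genes. Once library medians were subtracted, 8 fell and 3 rose (all genes, 13.1% and 10.5%). The 23 libraries above 50% gave 6 and 3 (all genes, 4.58% and 13.9%). Besides Sall1 and Irf8, Mef2c, a factor of microglia and neurons, fell by 2.12 ± 0.31 (adjusted p = 4.3e-05) and Maf by 1.56 ± 0.29 (adjusted p = 0.00056). Mef2a had a total of -2.25 ± 0.44 (adjusted p = 0.00072), which was -1.31 (adjusted p = 0.13) without normal microglia library 10. Of 15 integrins and adhesion genes, 4 rose and 4 fell (median 0.23), and the count that rose was near the 24.7% of all genes, against 8.02% lower. Relative to the library medians, 4 rose and 5 fell (all genes, 10.5% and 13.1%). In the 23 libraries above 50%, 4 rose and 3 fell (all genes, 13.9% and 4.58%). Cd44, a hyaluronan receptor, rose by 3.10 ± 0.43 (adjusted p = 2.2e-05) and Itgax, the integrin subunit CD11c, by 3.08 ± 0.45 (adjusted p = 3.9e-05). Itga6, a laminin receptor subunit, fell by 2.37 ± 0.32 (adjusted p = 1.8e-05) and Itgb5, which pairs in a vitronectin receptor, by 2.02 ± 0.28 (adjusted p = 2.7e-05). Itgam, the integrin subunit CD11b, had -1.31 ± 0.30 (adjusted p = 0.003). Maf and Itgam were not called without normal microglia library 10 (-1.25 and -1.18).

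Of 15 glycolysis genes, 7 rose and 1 fell (all genes, 24.7% and 8.02%; median 0.90). Against each library's median, 5 rose and 2 fell (all genes, 10.5% and 13.1%). The 23 libraries above 50% gave 5 and 1 (all genes, 13.9% and 4.58%). Pgk1, a glycolytic kinase, rose by 2.46 ± 0.36 (adjusted p = 4.7e-05) and the lactate dehydrogenase Ldha by 2.26 ± 0.33 (adjusted p = 4e-05). The hexokinase Hk2 ranged from 0.02 to 1.43 in normal microglia and from -1.62 to -0.25 in macrophages and fell by 1.63 ± 0.34 (adjusted p = 0.0012). Of 16 oxidative phosphorylation genes 5 were called higher and 0 lower, near the 24.7% of all genes called higher, and the list's median of 0.17 was below the 0.53 of all genes. The counts were 1 and 1 when library medians were subtracted (all genes, 10.5% and 13.1%). They were 2 and 0 in the 23 libraries above 50% (all genes, 13.9% and 4.58%). Immediate early genes respond to handling of cells as well as to signals. Of 16 such genes, 7 rose and 3 fell (all genes, 24.7% and 8.02%), with a median of 1.01 over the list. When library medians were subtracted, 4 rose and 4 fell (all genes, 10.5% and 13.1%). In the 23 libraries above 50%, 4 rose and 1 fell (all genes, 13.9% and 4.58%). Ier3, a stress-response gene, rose by 2.99 ± 0.40 (adjusted p = 1.5e-05) and Fosb by 1.95 ± 0.50 (adjusted p = 0.0061). Fosb was not called in the 23 libraries above 50%, nor without normal microglia library 1, 10 or 18 or differentiated macrophage library 28 (0.86 to 1.68).

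Against undifferentiated macrophages, limma called 0 genes higher and 2 lower (0.0114%) in differentiated macrophages, while 169 and 322 had an unadjusted p below 0.05. At these genes differentiated macrophages lay between normal microglia and undifferentiated macrophages. Ly6c2, a surface protein of inflammatory monocytes, had a difference of -3.17 ± 0.48 between differentiated and undifferentiated macrophages (adjusted p = 0.017), and its total against normal microglia was 2.62 ± 0.41 (adjusted p = 8e-05). S100a4, a calcium-binding protein of motile cells, had -3.10 ± 0.51 (adjusted p = 0.032) and a total of 1.53 ± 0.43 (adjusted p = 0.011). The total of S100a4 was not called with library medians subtracted or without normal microglia library 10 or 18 or differentiated macrophage library 28 (0.75 to 1.19).

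The total differed between recipient strains, by a test of the interaction, for 3 of 17586 genes: 1 with a larger value in WT recipients (0.00569%) and 2 with a larger value in Pep3 recipients (0.0114%). Their own totals averaged over both strains were not called. Grafted cells were of the other strain than the recipient, and differentiated macrophages carried experiment number 3 in WT and 4 in Pep3 recipients. Recipient strain, grafted strain and experiment number therefore cannot be told apart in this test. Tested within one recipient strain alone, with 3 residual degrees of freedom, 0 genes were called in either direction. The grafted cells in these fits were still of the other strain. An unadjusted p below 0.05 was found for 1946 genes in WT and 2758 in Pep3 recipients. In these fits the differences of Ldha (-0.56), Ier3 (-0.58), Lyz2 (-0.05), B2m (-0.15) and S100a4 (-1.97) turned negative in WT recipients, and that of Il1a (0.25) turned positive in Pep3 recipients.

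Markers of other cell types were called higher in part, against 24.7% of all genes called higher and 8.02% lower. Of 3 T cell markers 2 rose, Lck among them, of 2 natural killer cell markers 1 rose (Klrb1c), and of 8 astrocyte markers 3 rose and 1 fell. Klrb1c lost its call in 8 of the 24 fits without 1 library (0.27 to 2.29) and Lck in 2, without normal microglia library 10 or 26 (1.5 to 1.86). Of 4 B cell markers 2 rose and 2 fell, of 2 neutrophil markers 1 each, and of 7 dendritic cell markers 3 rose and 1 fell. The members that fell were the B cell markers Blnk and Cd79b, Csf3r, Siglech and the astrocyte marker Slc1a3. Cd79b lost its call in 7 of the 24 fits without 1 library, and Slc1a3 in 2. Microglia also express Blnk, Csf3r and Siglech, and the cause of these falls was not tested. Of 6 oligodendrocyte markers 2 rose, of 4 neuron markers 1, of 6 endothelial and mural markers 2, and of 7 glioma line markers 1, with 0 lower in each. In each of these 4 lists the count that rose is near the share of all genes. When library medians were subtracted (all genes, 10.5% higher), 3 dendritic cell, 2 endothelial and mural, 1 T cell, 1 B cell and 1 oligodendrocyte marker were called higher, and 0 natural killer cell, neutrophil, astrocyte, neuron and glioma line markers. In the 23 libraries above 50% (all genes, 13.9% higher), 3 dendritic cell markers, 2 each of the B cell, astrocyte, oligodendrocyte, endothelial and mural and glioma line markers and 1 neutrophil marker were called higher, and 0 T cell, natural killer cell and neuron markers.

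The mean score over each list overlapped between normal microglia and differentiated macrophages for T cell, natural killer cell, B cell, neutrophil, dendritic cell, oligodendrocyte, neuron and glioma line markers. Over the T cell list it was -1.15 to 0.66 in normal microglia, -2.43 to -0.05 in tumour microglia and -0.13 to 1.39 in differentiated macrophages. Over the glioma line list it was -1.05 to 0.48, -1.88 to -0.05 and 0.19 to 1.16. The ranges did not overlap for 3 lists on the deposited scale. Library medians on that scale averaged -0.14 in normal microglia and 0.29 in differentiated macrophages. For the astrocyte list the nearest values, 0.1148 and 0.1349, lay closer together than those medians. So did those of the endothelial and mural list, -0.1366 and 0.1149. Those of the border macrophage list, -0.2303 and 0.4481, lay further apart. Astrocyte markers had -1.47 to 0.11 in normal microglia, -1.16 to 0.13 in tumour microglia and 0.13 to 0.86 in differentiated macrophages, and endothelial and mural markers -1.15 to -0.14, -1.21 to -0.06 and 0.11 to 1.35. Of 8 border macrophage markers 5 rose and 1 fell, and the mean score was -1.56 to -0.23 in normal microglia, -1.39 to -0.23 in tumour microglia and 0.45 to 1.48 in differentiated macrophages. Its members Ms4a7 and Mrc1, which blood-derived macrophages also express, rose by 4.45 ± 0.49 (adjusted p = 1.6e-06) and 3.82 ± 0.51. The centred scores do not show whether a marker's level was near 0, and the part of these other cells in the results was not tested.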

How the data were processed

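RNA from flow-sorted cells was made into cDNA with Clontech's SMART-Seq v4 kit for very small amounts of RNA, per the labels' protocols. FastQC, STAR 2.5.0a, RSEM 1.3.0 and the mouse build mm9 are named in the submitters' processing notes, with no parameters. The authors deposited 1 table of signed scores, named normalised gene counts, for 17586 genes and 32 libraries. Its values are not counts, so no count model was used. Every gene has a mean of 0 over all libraries and within each recipient strain, and 9 further removed sample directions carry no name. How the authors normalised and centred the scores is not given in the sources used here. Such processing removes part of each library's own signal, makes libraries depend on each other and hides levels and depth.

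Group means by population and recipient were fitted in limma 3.58.1 (R 4.3.3) to all 32 libraries, with the 11 removed directions as covariates and robust empirical Bayes, leaving 15 residual degrees of freedom. Differences were averaged over recipient strains. Tests were two-sided, with Benjamini-Hochberg adjustment over all 17586 genes and a threshold of 0.05. The fitting was tested on simulated data.

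Named genes were the 4 markers, the 10 largest rises and falls without overlap and not predicted genes, the 2 called members with the largest difference per list, and the 4 leading genes of each placement. A further 56 list members were named after their values were seen. The comparison, the lists and the tests were chosen with earlier results of these data known. Alternatives were library medians subtracted, no covariates, other sets of libraries, library weights, a non-robust variance prior, each recipient strain alone and leaving out each library. The fit to libraries above 50% without covariates and the fit without undifferentiated macrophages were chosen after seeing the data. Promoters came from a RefSeq table of GRCm38.p6, matched by symbol, and list genes not in the table are not analysed here. A few list members are not reported here by name.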

Additional observations from a re-analysis of the deposited data

Results flagged for a closer look

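Among 310 groups of 8 libraries of the named genes, 20 held a library far from the other 7 by Dixon's test, which chance gives in about 1 group in 20. Of these, 6 concerned normal microglia library 2. Its score was -2.41 for Cox5a, 3.94 for mKIAA1506, 0.133 for Zfand2b, -2.07 for Msi2, -2.81 for S100a4 and -4.56 for Chi3l3. Normal microglia library 17 stood apart for Cxcl9 (-3.9), Itga4 (-3) and Top2a (-3.1), and library 25 for Xcr1 (-3.91), Cnp (0.54) and Pdcd1lg2 (-4.24). Normal microglia library 10, which kept 8.6% of its own variation, had -1.89 for H2-Aa, and the next library had -2.69.

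In differentiated macrophages, library 23 stood apart for Fabp5 (0.75, next 2.34), Lck (-1.1) and Sema4g (0.156). Library 15 stood apart for Tap2 (-0.6), Rrm2 (-0.844) and Mug2 (-2.74), and library 12 for G6pc3 (-3.28).

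The difference between differentiated macrophages and normal microglia differed between recipient strains for 3 genes in the test of the interaction. The strain of the grafted cells and the experiment number changed with the recipient. WT minus Pep3 recipients, it was 9.36 for Mmrn1, -7.75 for AK144274 and -6.76 for mKIAA0897. With no covariates for the removed directions, the count was 0.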

How the results depend on the processing

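The number of genes called depended on the scale, on library weights, on which libraries were in the fit and, for the classes of steps, on the covariates. With library medians subtracted, 1843 genes were higher and 2300 lower, both steps were called for 24 higher, the lineage step alone for 912 higher and 1660 lower and the tumour step alone for 103 lower, and 5 genes differed between strains. Without covariates, both steps were called for 150 higher and 164 lower and the tumour step alone for 342 lower, and 0 genes differed between strains. With library weights 1338 were higher and 595 lower, and 22 differed between strains. With only the groups compared (3 residual degrees of freedom) 48 were higher and 28 lower, 2637 had an unadjusted p below 0.05, and 0 differed between strains; without undifferentiated macrophages 465 and 494 were called. Either recipient strain alone gave 0 and 0.

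Without the 9 libraries below 50%, and with covariates (6 residual degrees of freedom), 0 genes were called in any class and 1560 had an unadjusted p below 0.05. Without covariates the same libraries gave 2450 higher and 805 lower. Both steps were called for 15 and 2, the tumour step alone for 69 and 13 and the lineage step alone for 1542 and 453. Leaving out each library gave 1330 to 4646 higher and 523 to 1487 lower. Both steps ranged from 6 to 70 higher and 0 to 73 lower, the tumour step alone from 64 to 499 and 7 to 272, the lineage step alone from 917 to 3226 and 224 to 658, and strain differences from 0 to 12. Beyond those named, higher calls were 2631 without normal microglia library 1, 2723 without differentiated macrophage library 28 and 2358 without library 31. Lower calls were 793, 716 and, without normal microglia library 18, 881.

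No called total among the 155 named genes turned with library medians subtracted, without covariates or with library weights. Nor did one with a non-robust prior or without 1 library. Totals called in neither fit were not counted here. Without 1 library, those of Ccl4 (-1.625 to 1.697), Cxcl13 (-1.083 to 0.8117), Cst7 (-0.3004 to 0.8628) and H2-Oa (-1.517 to 0.7743) took both signs. Without the 9 libraries and with covariates, Arg1 (-1.32), Klrb1c (-0.68), Slc1a3 (0.27), Cnp (-0.87), BPOZ (2.22), Sema4g (0.92), G6pc3 (0.041), Gda (-1.07), Ahnak (-0.075), Ifit3 (-0.20), Mug2 (1.39), S100a4 (-2.01), Tgfb1 (0.35), C1qa (0.11) and Mef2a (0.52) turned; without covariates Msi2 did (0.25). In WT recipients Pfkp (-0.19), Ier3 (-0.58), Cd79b (0.46), Cnp (-0.54), Nes (-0.51), rp58 (4.01), Ifit3 (-1.88), Mug2 (0.73), Tcfap4 (2.47), S100a4 (-1.97), Lyz2 (-0.051), B2m (-0.15) and Ldha (-0.56) turned. In Pep3 recipients Klrb1c (-1.02), Msi2 (1.53) and Il1a (0.25) did, with only the groups compared Klrb1c (-0.070) and Ifit3 (-0.23), and without undifferentiated macrophages Klrb1c (-0.048). Among all genes called in the main fit, 79.66% kept their direction without the 9 libraries and with covariates. The share was 80.15% in WT recipients alone, 80.55% in Pep3 recipients alone and 95.54% with only the groups compared. Without the 9 libraries and without covariates it was 99.91%. The cause was not tested, and the fits with few residual degrees of freedom had fewer libraries.

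No paired analysis was possible because the library numbers are not shared between the groups and the labels tie no library of one group to one of another. Depth is unknown, and centring hides whether a gene was near background.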
